A study of Mus musculus with 4 samples.

Results

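The genes described here are 10 transcripts known from regulatory T cells: Foxp3, Ikzf2, Ikzf4, Hopx, Lrrc32, Itgb8, Areg, Gpr83, Izumo1r and Tiam1. They were chosen by symbol, and each matched 1 of the 32285 genes in the count tables. They were followed in splenic CD3+CD4+ cells sorted from C57BL6/J mice and cultured for 6 hours with beads coated with anti-CD3 and anti-CD28, which engage the T cell receptor and its costimulatory receptor. There was 1 library each from female Irf5-/-, female WT, male Irf5-/- and male WT spleens, and per-library values below are listed in that order. Irf5 encodes interferon regulatory factor 5, and every cell of all 4 libraries was stimulated. No unstimulated cells are analysed here, so induction over rest was not measured; cells with strong and weak activation signatures within the stimulated cultures were compared instead. Neither the number nor the age of mice behind a library is given in the sources used here, so the p-values measure the spread between these libraries only.

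Regulatory T cells are CD4 T cells that restrain other immune cells, and Foxp3 is the transcription factor that defines the lineage. Stimulation through the T cell receptor also switches on immediate early genes, such as the Nr4a and Egr families, in conventional and regulatory T cells alike. Several proteins used as regulatory T cell markers are known to appear on other activated T cells too, which is why each member was read separately in cells with and without a Foxp3 transcript.

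Cells were kept with at least 2000 UMIs (unique molecular identifiers, 1 per captured transcript), at least 500 genes and no more than 10% of UMIs from mitochondrial genes, which left 6178, 1814, 6543 and 4565 cells, 19100 in all. Median depth ranged from 5105 to 9661 UMIs per cell. Library pairs shared 2 to 14 cell barcodes. The label check went against the labels: Irf5 was at 8.57 and 9.07 CPM (UMIs per 1000000 UMIs of the cells summed) in the female and male libraries labelled Irf5-/-, and at 0.936 and 1.18 in the female and male libraries labelled WT. The genotype is therefore given throughout as a label, and if the labels were exchanged every direction given below for the genotype label would be reversed. A 3′ count can also come from an allele that makes no protein, and which exons the allele lacks is not given in the sources used here. Transcripts of the sorted type were present (the T marker sum was 985 to 1461 CPM in both classes of cells), but markers of other cells moved with the libraries: in Foxp3-negative cells the sum of 9 B cell markers was 564, 61.4, 300 and 63.5 CPM, and that of 9 erythroid markers 16.4, 1456, 26.2 and 45.8.

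A cell was called Foxp3-positive when it held at least 1 Foxp3 UMI. There were 294, 42, 361 and 165 such cells, 862 in all, and 18238 Foxp3-negative cells. Median depth was 4474.5, 7033, 5726 and 7501 UMIs in the positive cells and 5122.5, 8442.5, 6803 and 9722 in the negative cells. A cluster built without any of the 10 members, and led by Tnfrsf4, Tnfrsf18, Tnfrsf9 and Il2ra, held 803 cells, of which 75.6% were Foxp3-positive. It is called the regulatory T-like cluster below. It contained 81.6% of all Foxp3 UMIs, and it also held 196 Foxp3-negative cells.

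The members lie on 8 chromosomes, and 2 of them are neighbours: Gpr83 (9:14860210-14870789, plus strand) and Izumo1r (9:14885814-14903949, minus strand) are 15.025 kb apart on GRCm38, the build that mm10 in the submitters' processing notes corresponds to. Among the RefSeq promoters of GRCm38.p6, each spanning 250 bases before to 50 bases after a transcript start, 7 of the 10 members had an entry, with 10 promoters between them. They were searched on both strands for the cyclic AMP response element TGACGTCA, a looser form of the AP-1 site (TGANTCA, N being any base) and the forkhead site GTAAACA. Sites of these kinds are bound by signal-responsive factors and by forkhead proteins. Areg held the first and 1 Tiam1 promoter the second, as TGATTCA, and none of the 10 held the third. Both promoters are printed because Areg and Tiam1 moved in opposite directions with the activation score described below. Capitals mark the match, which starts 61 bases before the Areg start (chr5:91139349-91139648, plus strand) and 15 bases before the Tiam1 start (chr16:89974650-89974949, minus strand).
Areg: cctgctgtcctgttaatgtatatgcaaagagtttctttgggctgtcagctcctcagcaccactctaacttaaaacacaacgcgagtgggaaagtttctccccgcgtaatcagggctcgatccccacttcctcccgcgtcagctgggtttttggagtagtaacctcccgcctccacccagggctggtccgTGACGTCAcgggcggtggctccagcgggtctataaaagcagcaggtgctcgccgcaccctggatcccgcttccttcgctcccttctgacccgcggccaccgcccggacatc
Tiam1: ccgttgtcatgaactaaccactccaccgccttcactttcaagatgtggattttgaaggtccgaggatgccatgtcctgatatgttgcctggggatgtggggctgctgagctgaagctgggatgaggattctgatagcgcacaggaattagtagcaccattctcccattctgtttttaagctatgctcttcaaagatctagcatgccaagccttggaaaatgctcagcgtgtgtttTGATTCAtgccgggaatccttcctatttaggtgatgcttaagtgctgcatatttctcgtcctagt
Of the 32851 promoters searched, 1.79% held the cyclic AMP response element, 7.81% the looser AP-1 form and 3.65% the forkhead site. A match describes letters in these windows and does not show binding.

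The first question was how far each member is restricted to cells with Foxp3. All 9 other members were higher in Foxp3-positive than in Foxp3-negative cells of every library, by 10.4- to 58.8-fold in the fit over all libraries (log2 3.41 to 7.59 within single libraries). No per-library value of a positive class fell within the range of the negative class, and the share of all genes without such overlap is not given here. The counts were summed per library and class and compared in edgeR's quasi-likelihood test with the library as a block. All 9 were called higher at an adjusted p under 0.05, beside 17.9% of the 10594 genes tested that were called higher, 17.1% called lower and 34.9% in either direction. Levels are CPM of the class, and they are compared within a gene only, since capture differs between genes.

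The nuclear regulators come first. Ikzf2 encodes Helios, a zinc-finger transcription factor of the Ikaros family. Its level in Foxp3-positive cells was 1364, 1243, 1194 and 816 CPM, and in Foxp3-negative cells 56.2, 33.8, 41.2 and 31.6. The log2 fold change was 4.65 ± 0.08 (SE; edgeR adjusted p = 4.8e-18). Ikzf4 encodes Eos, a family member that acts as a corepressor partner of Foxp3. It stood at 189, 159, 144 and 106 CPM in positive cells and at 15.9, 12.7, 13.5 and 8.71 in negative cells, a log2 fold change of 3.38 ± 0.09 (SE; edgeR adjusted p = 1.6e-15). Hopx encodes a homeodomain-only protein without DNA-binding activity of its own. Its positive cells held 432, 328, 263 and 271 CPM and its negative cells 21.3, 17.1, 16.8 and 14.1. The log2 fold change was 4.04 ± 0.08 (SE; edgeR adjusted p = 3.7e-17).

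Lrrc32 and Itgb8 act on transforming growth factor beta at the cell surface. Lrrc32 encodes GARP, which tethers the latent form, and Itgb8 encodes the beta chain of an integrin that releases the active form. Lrrc32 measured 232, 249, 264 and 261 CPM in positive cells and 12.3, 4.39, 9.25 and 5.09 in negative cells (log2 fold change 4.83 ± 0.17, SE; edgeR adjusted p = 1.5e-13). Itgb8 measured 86.6, 79.7, 79.7 and 62.1 against 2.00, 0.70, 1.33 and 0.60, a fitted ratio of 58.8-fold beside 58.5-fold for Gpr83 (log2 5.88 ± 0.22, SE; edgeR adjusted p = 3.2e-13). For both genes the positive classes were close to each other, while the negative classes of the 2 libraries labelled Irf5-/- lay above those of the 2 labelled WT.

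Areg encodes amphiregulin, a growth factor of the epidermal growth factor family that regulatory T cells can supply to tissues. It was found at 97.0, 172, 104 and 62.1 CPM in positive cells and at 2.55, 2.55, 3.30 and 2.22 in negative cells, a log2 fold change of 5.02 ± 0.17 (SE; edgeR adjusted p = 5.3e-14). Gpr83, a receptor coupled to G proteins, reached 176, 299, 176 and 209 CPM against 5.50, 1.53, 3.14 and 1.76 (log2 5.87 ± 0.23, SE; edgeR adjusted p = 6.0e-13). Izumo1r encodes folate receptor 4, a surface marker used to sort regulatory T cells; it stood at 262, 341, 256 and 257 CPM against 23.3, 20.6, 23.5 and 21.9 (log2 3.42 ± 0.08, SE; edgeR adjusted p = 1.4e-15). The negative classes of Izumo1r differed little between libraries, unlike those of Gpr83. Tiam1 encodes an exchange factor that activates the small GTPase Rac. It was at 131, 79.7, 116 and 84.2 CPM in positive and 9.64, 4.39, 9.76 and 6.49 in negative cells (log2 3.55 ± 0.11, SE; edgeR adjusted p = 1.3e-14).

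**Figure D1:**
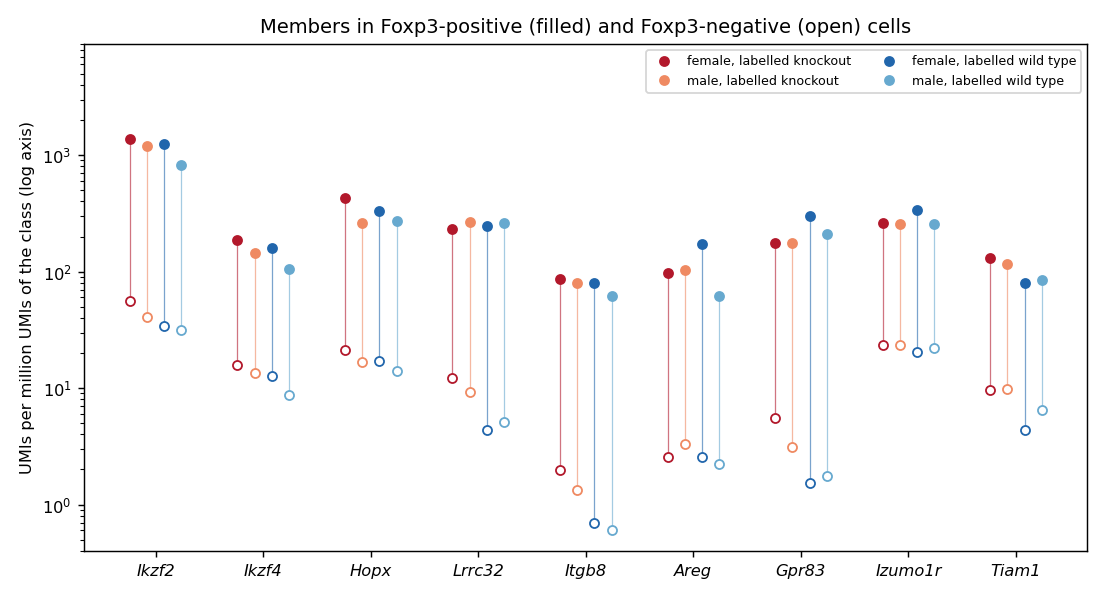
Levels of the 9 other members in CPM (log axis) in Foxp3-positive cells (filled) and Foxp3-negative cells (open) of the 4 libraries, joined within a library. Every filled point lies above all open points of its gene, and the open points of Lrrc32, Itgb8, Gpr83 and Tiam1, among others, are higher in the 2 libraries labelled Irf5-/-.

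A wider list of 53 genes linked to regulatory T cells moved with the members. Of its 49 tested genes 41 were higher in Foxp3-positive cells, 2 were lower and 6 were not called, with a median log2 fold change of 2.14 beside a median of -0.0022 over all genes tested. Socs2, an inhibitor of cytokine signalling (log2 4.64), Il1rl1, the interleukin-33 receptor (4.09), Nrp1, the coreceptor neuropilin 1 (3.89), and Ctla4, an inhibitory receptor (3.29), were among the called genes. Of 18 genes known to be kept low in regulatory T cells, 14 were lower, 4 were not called and none was higher. The non-member genes with the largest rise among those at a mean of at least 5 CPM were A630091E08Rik (log2 6.22), Kcnj15, a potassium channel (5.96), Itih5 (5.25), Lamc1, a laminin chain (4.95), Socs2, Gm28112 (4.53), Wls, a carrier of Wnt proteins (4.46), Cd80 (4.41), Flicr, a noncoding RNA transcribed beside Foxp3 (4.41), and Il1r2, a decoy receptor for interleukin-1 (4.14). Likeness here is the size of the Foxp3-positive against Foxp3-negative difference over the 8 sums.

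How often a member was seen in single cells shows the same contrast in another unit. In Foxp3-positive cells the share with at least 1 UMI was 72.1% to 76.2% over the 4 libraries for Ikzf2, 58.2% to 62.9% for Lrrc32, 49.7% to 64.3% for Izumo1r and 45.7% to 55.4% for Hopx. It was 35.8% to 46.6% for Ikzf4, 31.3% (92 of 294) to 21 of 42 for Gpr83, 33.3% to 35.7% for Tiam1, 20.0% to 26.3% for Itgb8 and 13.6% to 21.4% for Areg. In Foxp3-negative cells the highest shares were 9.09% to 13.5% for Izumo1r, 7.02% to 8.66% for Hopx, 6.59% to 8.69% for Ikzf4 and 5.95% to 8.52% for Ikzf2. Tiam1 (2.88% to 3.98%) and Lrrc32 (2.43% to 3.64%) were rarer, and Gpr83 (1.23% to 1.56%), Areg (0.850% to 1.07%) and Itgb8 (0.364% to 0.782%) rarer still. With every cell thinned to 2000 UMIs, the shares among Foxp3-negative cells were 4.14% to 4.57% for Izumo1r, 2.68% to 3.69% for Hopx, 2.42% to 4.24% for Ikzf4 and 3.36% to 6.40% for Ikzf2. Pairs of members were also counted in the 542 cells that kept a Foxp3 UMI after thinning. The neighbours Gpr83 and Izumo1r were seen together in 108 cells where independent detection gives 71.6, a ratio of 1.51. That ratio was not the highest: it was 2.30 for Itgb8 and Areg (18 against 7.84) and 1.63 for Hopx and Areg (34 against 20.9). Areg and Gpr83 were seen together in 9 cells where independent detection gives 18.6. These counts pool the libraries and carry no test.

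Free RNA sets a floor under such shares. As a reference, 56 cells with at least 3 erythroid marker UMIs and at most 1 T marker UMI were taken, a set chosen after the data were seen. Ikzf4, Lrrc32, Itgb8, Gpr83, Izumo1r and Foxp3 had 0 of these 56 cells with a UMI, which allows a share of up to 5.36%, at a median depth of 15923 UMIs. At full depth the Foxp3-negative shares of Izumo1r and Ikzf4 lie above that limit in every library. Those of Lrrc32, Itgb8 and Gpr83 lie under it. After thinning, the 56 cells held no Izumo1r or Ikzf4 UMI either, and the thinned shares of both genes given above lie under the limit. The limit pools the libraries, and the number of these cells per library is not given here. Erythroid markers were highest in the female library labelled WT (1456 CPM in Foxp3-negative cells), so the limit need not hold in every library. Areg and Hopx were each seen in 1 of the 56 cells (1.79%, exact 95% interval 0.0452% to 9.55%, counting error only) and Tiam1 in 4 (7.14%, 1.98% to 17.3%), and their Foxp3-negative shares fall within these intervals. Ikzf2 had a UMI in 32 of the 56 cells (57.1%, 43.2% to 70.3%) and stood there at 123 CPM, against 1.04 CPM for Hopx, so these cells set no limit for Ikzf2. Taken alone, the Foxp3-negative shares of the members are therefore not read as expression outside Foxp3-positive cells. Droplets with fewer than 200 UMIs held Foxp3 at 63.8, 19.9, 44.2 and 28.2 CPM and Ikzf2 at 222, 94.4, 109 and 58.8. They held Izumo1r at 41.7, 29.3, 48.5 and 38.3 CPM and Ikzf4 at 25.7, 12.5, 19.6 and 12.0. The droplet level of each of the 9 members was above its level in Foxp3-negative cells of the same library, except Ikzf4 in the female library labelled WT. A droplet level describes free RNA alone, so a lower level in cells does not decide whether the cells express a member.

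Members came together in the same cells. At least 3 of the other 9 were detected in 73.8%, 73.8%, 72.6% and 69.7% of Foxp3-positive cells, and in 2.92%, 1.81%, 2.77% and 2.18% of Foxp3-negative cells. The 196 Foxp3-negative cells of the regulatory T-like cluster were uneven between libraries: 75.3% of 77, 12.0% of 25, 64.6% of 65 and 44.8% of 29 cells held at least 3 members. Their Lrrc32 level was 438, 42.2, 397 and 172 CPM and their Gpr83 level 228, 8.44, 137 and 98.4. In the 25 cells of the female library labelled WT these levels rest on 5 Lrrc32 UMIs and 1 Gpr83 UMI, and not every member was as low there: Itgb8 was at 33.8 CPM against 34.4 in the male library labelled WT, and Ikzf2 at 633 against 694. Conversely, 255 Foxp3-positive cells lay outside that cluster, and 25.2% to 36.4% of them held at least 3 members. The share of a member's UMIs that sat in Foxp3-negative cells outside the cluster ranged over the 4 libraries from 14.1% to 19.4% for Itgb8 and from 15.4% to 21.3% for Gpr83. It was 26.8% to 43.5% for Lrrc32, 29.7% to 52.1% for Areg, 32.4% to 49.5% for Ikzf2 and 41.9% to 71.8% for Hopx. For Tiam1 it was 50.5% to 73.4%, for Ikzf4 55.2% to 79.2% and for Izumo1r 58.3% to 74.0%.

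The Foxp3-negative cells that carried members were spread over different clusters, which are described without a test because the clusters came from the same cells. Ikzf4 was highest outside the regulatory T-like cluster in a cluster led by Samhd1, Fyb and Iigp1 with Klf2, a gene of resting T cells, at 50.05 CPM. That cluster of 3863 Foxp3-negative cells held 51.4% of the Ikzf4 UMIs of Foxp3-negative cells. Areg stood at 8.59 and 10.0 CPM in the clusters led by Nr4a1, Nfkbid and Nr4a3 and by Egr1, Nr4a1 and Egr3, and at 0.17 in the resting cluster. Lrrc32 was at 10.3 in the Nr4a1 cluster, at 11.02 in a cluster led by Cd69, Mif and Tnfsf11, and at 79.2 in 262 innate-like T-like cells led by Cxcr6, Rora and Plac8. Ikzf2, Hopx and Tiam1 were at 430, 146 and 96.6 CPM in the 699 Foxp3-negative cells of a cluster led by Celf2, Eea1 and Stat4. Of all 742 cells of that cluster 5.80% had a Foxp3 UMI, the highest share outside the regulatory T-like cluster, and Tnfrsf4 was among its 10 leading genes. Ikzf2 was also at 345 in the innate-like T-like cells. Gpr83 stayed at 4.41 CPM or less in every cluster but the regulatory T-like one, where its Foxp3-negative cells held 146.

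**Figure D2:**
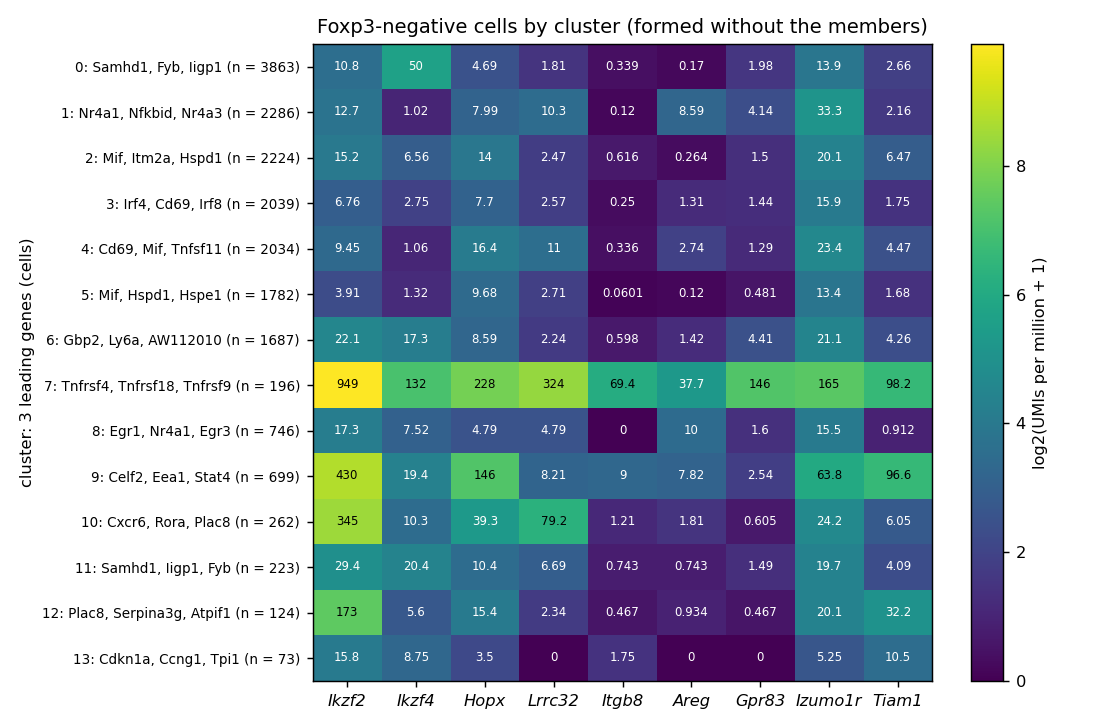
CPM of each of the 9 other members (columns) in the Foxp3-negative cells of each cluster (rows, with its 3 leading genes and its number of Foxp3-negative cells). The colour is log2 of the level plus 1. The regulatory T-like row (cluster 7, 196 cells) is high in every column, the Celf2 row in Ikzf2, Hopx and Tiam1, the resting row (cluster 0) in Ikzf4, and the Nr4a1 and Egr1 rows (clusters 1 and 8) in Areg.

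The second question was whether activation goes with these genes outside Foxp3-positive cells. Each cell was scored by its UMIs of Nr4a1, Nr4a3, Egr1, Egr2, Egr3, Cd69, Myc and Irf4 at a depth of 2000 UMIs. Cells with a score of up to 2 were set against cells with a score above 8, or above 9 in the female library labelled WT. Over all cells, the low class held 2276, 646, 2420 and 1673 and the high class 1873, 554, 2076 and 1428. Among Foxp3-negative cells 3 members were higher in high-score cells (Areg, Lrrc32 and Izumo1r), 5 were lower (Ikzf4, Itgb8, Ikzf2, Tiam1 and Hopx) and Gpr83 was not called. The share of all genes called in this comparison was 78.9% of 10955, 37.3% higher and 41.5% lower, so the number of members called is near the background. High-score cells were also deeper, with a median of 6942 UMIs against 5298.

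Areg rose most. It was at 1.60, 0, 2.00 and 0.60 CPM in low-score Foxp3-negative cells (the 0 allows up to 0.628) and at 5.72, 7.32, 5.50 and 5.96 in high-score cells, without overlap. The log2 fold change was 2.48 ± 0.34 (SE; edgeR adjusted p = 1.1e-05), higher in 4 of 4 libraries. Few cells carried it: 29 of 6546 low-score and 101 of 5757 high-score cells had a UMI, and the 5 Foxp3-negative cells with most Areg UMIs held 24.1% to 55.0% of those UMIs in a library. Lrrc32 went from 13.1, 2.09, 8.75 and 4.09 to 16.7, 8.40, 10.99 and 6.95 CPM (log2 0.74 ± 0.16, SE; edgeR adjusted p = 8.4e-04). It was higher in 4 of 4 libraries although the 2 classes overlapped between libraries. The call was lost with every cell thinned to 2000 UMIs (0.24, edgeR adjusted p = 0.16) and without the library block (0.73, edgeR adjusted p = 0.11). Thinning also took Foxp3 status from the thinned counts, which moved cells with a Foxp3 UMI into the Foxp3-negative class. Izumo1r went from 21.8, 15.9, 21.8 and 17.7 to 24.7, 29.5, 27.3 and 27.7 CPM (log2 0.64 ± 0.10, SE; edgeR adjusted p = 2.8e-05), with no overlap.

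The nuclear regulators and the remaining members went the other way. Ikzf4 fell from 35.6, 31.0, 32.0 and 20.9 CPM to 3.71, 3.44, 3.43 and 1.56, a log2 fold change of -3.15 ± 0.11 (SE; edgeR adjusted p = 4.2e-12), the largest among the members. Ikzf2 fell from 100.4, 53.0, 71.5 and 63.0 to 33.8, 28.6, 20.3 and 12.1 (log2 -1.56 ± 0.14, SE; edgeR adjusted p = 9.0e-08). Itgb8 (log2 -1.81 ± 0.35, SE), Tiam1 (-1.19 ± 0.17) and Hopx (-0.71 ± 0.11) were lower in 4 of 4 libraries as well. Gpr83 went down in both libraries labelled Irf5-/- and slightly up in both labelled WT (log2 -0.19 ± 0.21, SE; edgeR adjusted p = 0.40).

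Regulatory T-like cells without a Foxp3 UMI weigh on these values. With that cluster left out, Areg was at a log2 fold change of 3.13, Lrrc32 at 1.38 and Izumo1r at 0.71, and Gpr83 became a call at 0.75 (edgeR adjusted p = 0.020). The rise also depended on which activation genes formed the score. With 8 growth genes as the score, which mark a later step of activation, the log2 values were -0.38 for Areg, -0.40 for Lrrc32 and -0.10 for Izumo1r, none of them called, and Gpr83 fell by 2.01, beside 39.8% of 10871 genes called higher and 44.4% lower with that score.

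**Figure D3:**
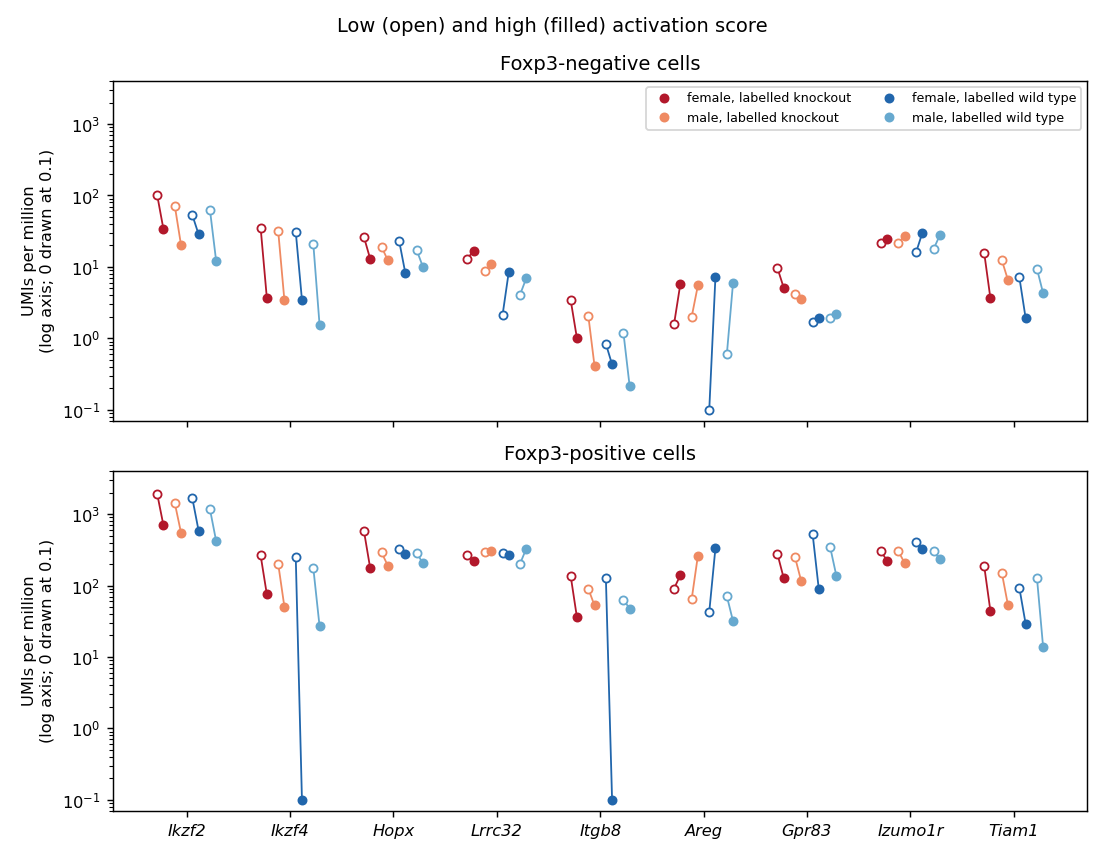
CPM (log axis, 0 drawn at 0.1) of the 9 other members in cells of low (open) and high (filled) activation score, joined within a library, for Foxp3-negative cells above and Foxp3-positive cells below. In Foxp3-negative cells Areg, Lrrc32 and Izumo1r go up in 4 of 4 libraries, and Ikzf2, Ikzf4, Hopx, Itgb8 and Tiam1 go down in 4 of 4 in both kinds of cells.

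The same score classes were compared in Foxp3-positive cells, from 469 low-score and 174 high-score cells (48, 9, 71 and 46 per library). Of the 9 members, 7 were lower and 1, Areg, was higher in high-score cells, beside 42.2% of 5206 genes called, 20.5% higher and 21.7% lower. Ikzf4 fell by 2.25 on the log2 scale, Tiam1 by 2.06, Ikzf2 by 1.45, Gpr83 by 1.33, Itgb8 by 1.10, Hopx by 0.84 and Izumo1r by 0.44, each lower in 4 of 4 libraries. The Hopx call held in 14 of 15 alternatives and the Izumo1r call in 12 of 15. In the 9 high-score cells of the female library labelled WT, Ikzf4 and Itgb8 had 0 UMIs, which allows up to 44.1 CPM. The make-up of the classes moved with these values: Foxp3 itself was at 637, 526, 558 and 529.9 CPM in low-score and 399, 235, 434 and 329 in high-score cells, and 85.1% of low-score against 51.7% of high-score cells had an Ikzf2 UMI. That share was 91.8% in Foxp3-positive cells inside the regulatory T-like cluster and 31.8% outside it. The part of this make-up in the values was not tested. Lrrc32 showed no call (0.14 ± 0.15, SE; edgeR adjusted p = 0.49), at 266, 285, 294 and 203 CPM in low-score and 223, 264, 303 and 329 in high-score cells. Areg was at 90.9, 42.7, 64.5 and 71.3 CPM in low-score and 140, 338, 262 and 31.8 in high-score cells, higher in 3 of 4 libraries (log2 1.12 ± 0.30, SE; edgeR adjusted p = 0.0044). Few cells carried it: the high-score values came from 4, 1, 11 and 4 cells with an Areg UMI, and the 338 CPM from 23 UMIs in 1 of 9 cells. The share of cells with an Areg UMI was 12.6% (59 of 469) in low-score and 11.5% (20 of 174) in high-score cells. Without the male library labelled Irf5-/- the Areg value was 0.46 and no call (edgeR adjusted p = 0.46), and without that library Izumo1r was -0.41 (edgeR adjusted p = 0.086). With the growth genes as the score, Areg was lower (log2 -1.24, edgeR adjusted p = 2.2e-04) and so was Lrrc32 (-1.12, 1.7e-06), beside 29.1% of 5434 genes called higher and 29.8% lower.

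The difference of the score effect between the 2 kinds of cells was tested directly. It was called for Izumo1r, which rose with the score in Foxp3-negative cells and fell in Foxp3-positive cells (log2 difference -1.05 ± 0.15, SE; edgeR adjusted p = 7.4e-05), and for Gpr83 (-1.06 ± 0.27; edgeR adjusted p = 0.029), beside 3.75% of 9673 genes in either direction and 2.97% with a negative and 0.786% with a positive difference. The Gpr83 call was lost without the male library labelled Irf5-/- (-1.09, edgeR adjusted p = 0.10) and without the male library labelled WT (-0.72, edgeR adjusted p = 0.33), with every cell thinned to 2000 UMIs (-0.47, edgeR adjusted p = 0.64) and in DESeq2 (-1.04, adjusted p = 0.070). Izumo1r was called in all 6 alternatives run. The thinned fit also took Foxp3 status from the thinned counts. Areg (-1.27, edgeR adjusted p = 0.25), Lrrc32 (-0.51, 0.23) and Ikzf4 (0.95, 0.099) were not called. Areg became a call when thinned (-1.56, edgeR adjusted p = 0.039) and without the male library labelled Irf5-/- (-2.54, 0.023), and was at -0.30 without the male library labelled WT. Ikzf4 became a call without the female library labelled WT (1.07, edgeR adjusted p = 0.031).

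The wider list went both ways in Foxp3-negative cells, with 18 genes higher, 21 lower and 6 not called of 45 tested (median log2 -0.01, against -0.06 over all genes tested), shares close to the 37.3% higher and 41.5% lower among all genes. Maf (log2 -2.69), a transcription factor, and Nt5e (-3.65), which encodes the ecto-enzyme CD73, were lower. Of the 18 genes known to be kept low in regulatory T cells, 8 were higher and 8 lower; Il2 (3.32), Tnf (3.51) and Cd40lg (2.73), products of activated conventional T cells, rose, and Il7r (-3.71), a gene of resting T cells, fell. In Foxp3-positive cells 7 of the 33 tested genes of the wider list were higher and 16 lower, beside 20.5% and 21.7% of all genes, among them Nrp1 (-2.18), Maf (-3.70) and Pdcd1 (-1.62).

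The third question was the genotype label. The share of cells with a Foxp3 UMI was 4.76%, 2.32%, 5.52% and 3.61%, a mean of 5.14% ± 0.54 (SD, n = 2) in libraries labelled Irf5-/- and of 2.96% ± 0.92 (SD, n = 2) in those labelled WT. Both libraries labelled Irf5-/- lay above both labelled WT, and the exact two-sided permutation p of 0.33 is the smallest that 2 against 2 libraries can give. A higher share of cells and more RNA per cell cannot be told apart in sums over all cells. There Foxp3 was at 23.2, 7.55, 24.2 and 12.5 CPM, and 8 of the 10 members were called higher in libraries labelled Irf5-/- in edgeR with a term for sex, beside 0.809% of 12855 genes called higher 0.397% lower and 1.21% in either direction. Leaving out 1 library at a time kept 2 to 5 of these calls: 3 without the female and 2 without the male library labelled Irf5-/-, 5 without the female and 4 without the male library labelled WT. With no term for sex none of the 8 was called.

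The log2 fold changes over all cells were 1.15 for Foxp3 (± 0.13, SE; edgeR adjusted p = 4.3e-04), 1.15 for Itgb8, 0.95 for Tiam1, 0.93 for Lrrc32, 0.87 for Ikzf2, 0.65 for Ikzf4, 0.62 for Gpr83 and 0.53 for Hopx. Each was higher in both sexes. Ikzf2 was at 119 and 100.4 CPM in the female and male libraries labelled Irf5-/- and at 57.5 and 56.1 in those labelled WT. Areg (0.64 ± 0.17, SE; edgeR adjusted p = 0.11) and Izumo1r (0.25 ± 0.08; 0.27) were not called. Of the wider list 17 of 52 tested genes were higher and none lower, with Penk, which encodes an opioid precursor (2.06), and Socs2 (1.22) first.

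Within Foxp3-positive cells none of the 9 members was called, beside 0.448% of 8268 genes, 0.254% higher and 0.194% lower (at an unadjusted p under 0.05 edgeR gave 402 genes, and DESeq2 called no member). The values were 0.31 for Ikzf2 (interval of 2 SE 0.12 to 0.50), 0.32 for Ikzf4 (-0.04 to 0.68), 0.09 for Hopx (-0.19 to 0.38), -0.07 for Lrrc32 (-0.38 to 0.23), 0.23 for Itgb8 (-0.21 to 0.67) and 0.04 for Areg (-0.36 to 0.45). Gpr83 was at -0.51 (-0.83 to -0.19; edgeR adjusted p = 0.16), Izumo1r at -0.21 (-0.51 to 0.08) and Tiam1 at 0.50 (0.09 to 0.90; edgeR adjusted p = 0.72). The female library labelled WT gave 42 of the positive cells. Without it, and with no term for sex, Areg was at 0.65, Ikzf2 at 0.59 and Ikzf4 at 0.59. Without the male library labelled WT, again with no term for sex, Areg was at -0.79 and Gpr83 at -0.79. Each of these fits has only 1 library labelled WT, so the label is in part confounded with sex.

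Within Foxp3-negative cells 4 of the 9 members were called higher in libraries labelled Irf5-/-, beside 0.537% of 12656 genes called higher 0.387% called lower and 0.924% in either direction. These were Gpr83 (log2 1.19 ± 0.25, SE; edgeR adjusted p = 0.038), Lrrc32 (1.05 ± 0.15; 0.0031), Tiam1 (0.74 ± 0.15; 0.030) and Ikzf2 (0.49 ± 0.10; 0.032), each higher in both sexes. With the regulatory T-like cluster left out of the Foxp3-negative cells, none of the 9 was called, and the values were 0.79, 0.64, 0.58 and 0.35. With cells lacking any T marker UMI left out, none was called either, at 1.13, 1.03, 0.74 and 0.48. The B cell marker sum given above was higher in the same 2 libraries, and so was the sum of 3 innate-like T markers in Foxp3-negative cells, at 39.8, 26.7, 40.8 and 13.6 CPM. Free RNA in droplets went the same way, with Lrrc32 at 53.2, 24.2, 39.5 and 23.9 CPM, Tiam1 at 28.1, 13.3, 16.2 and 10.98, and Gpr83 at 21.8, 11.7, 13.7 and 11.1. The part of these in the 4 values was not tested. With no term for sex and all 4 libraries kept, none of the 4 was called. DESeq2 called none of the 9, and Lrrc32 alone was called with no filter on low counts and with a minimum of 4000 UMIs. The fits that left out 1 library also had no term for sex. Leaving out 1 library at a time kept 0 to 3 of the 4 calls: none without the female library labelled Irf5-/- or without either library labelled WT, and 3 without the male library labelled Irf5-/-.

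The genotype-label effect differed between the 2 kinds of cells for Gpr83 (log2 difference -1.67 ± 0.27, SE; edgeR adjusted p = 0.0027) and Lrrc32 (-1.14 ± 0.20; 0.0092), beside 0.33% of 10594 genes, 0.274% with a negative and 0.0566% with a positive difference. Gpr83 was at 1.19 in Foxp3-negative cells (0.79 and no call without the regulatory T-like cluster) and at -0.51, no call, in Foxp3-positive cells, and Lrrc32 at 1.05 (0.64 and no call without that cluster) and -0.07, no call. The Lrrc32 call was lost without the female library labelled Irf5-/- (-0.85, edgeR adjusted p = 0.074). Neither was called with every cell thinned to 2000 UMIs (-0.63 and -0.93). Foxp3 status was then taken from the thinned counts, which left 542 of the 862 Foxp3-positive cells in that class. The others moved into the Foxp3-negative class, so depth and class changed together.

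**Figure D4:**
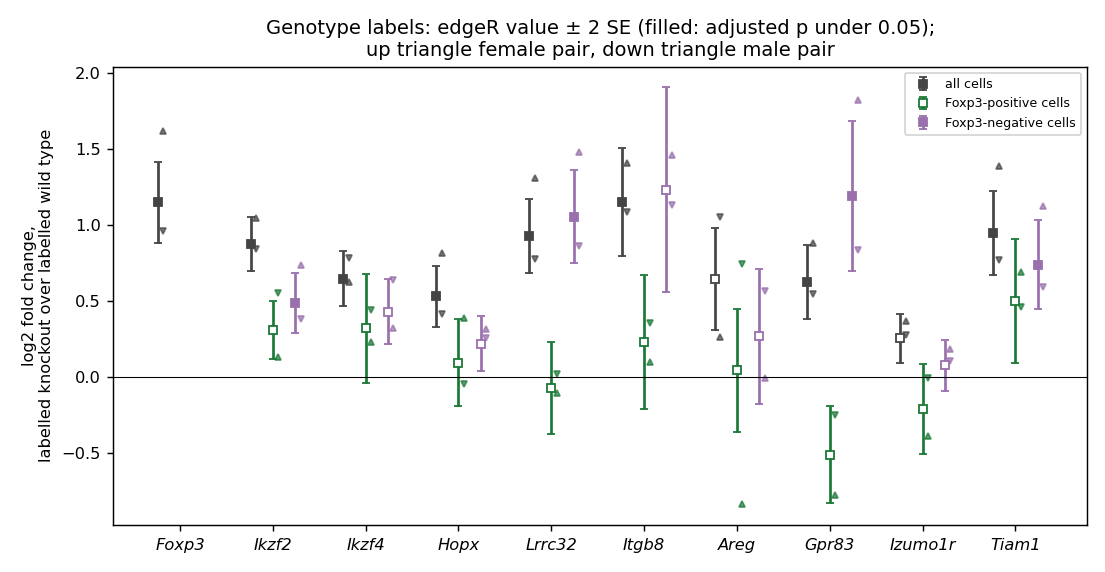
Log2 fold change of labelled Irf5-/- (labelled knockout) over labelled WT (wild type) for each member in all cells, Foxp3-positive cells and Foxp3-negative cells; squares are edgeR values with bars of 2 SE, filled where the adjusted p is under 0.05, and triangles are the female (up) and male (down) library pairs. Of the 10 members 8 are filled in all cells, none of 9 in Foxp3-positive cells and 4 of 9 in Foxp3-negative cells.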

How the data were processed

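The members, gene lists and tests were chosen with earlier results of these data known. Per the submitters' processing notes, Cell Ranger 6.0.2 and mm10 were used, and per the file headers the deposited matrices are Cell Ranger output. The deposited values are unnormalized whole-number counts of UMIs for each gene in each barcode. The strand setting and annotation are not given in the sources used here. Cells were called here by the limits stated above. No doublets were removed, except in an alternative that removed the highest scrublet scores at 0.8% per 1000 cells.

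Cells were scaled to 10000 UMIs, logged, centred per library on 2000 variable genes (members among the 764 genes left out), reduced to 30 components and clustered with leidenalg 0.10.2 in scanpy 1.11.5. Counts were summed per library and class. In edgeR 4.0.16 (R 4.3.3), genes passing filterByExpr were scaled by TMM and given a quasi-likelihood test, adjusted by the Benjamini-Hochberg method over every gene tested, with a term for sex (genotype label) or a library block (Foxp3 status, score); SEs were derived from the F statistic. Simulated log2 changes of 1 were recovered in 94.9% of changed genes for the score in Foxp3-negative cells, the highest of the 8 comparisons, and in 41.9% for the difference of the score effect, the lowest. For the label in Foxp3-positive cells 53.7% were recovered. Unchanged genes made up 7.39% and 7.14% of the calls for the score in Foxp3-negative cells and the difference of the score effect, and 10.4% for the difference of the label effect. The simulated counts carried no library or sex effect. Few genes were changed, all above a minimum mean count, so these rates need not hold for members with few counts. Each comparison names the 10 members and at most 10 called list genes of the largest change at a mean of 5 CPM or more; Foxp3 status adds the 10 non-members with the largest rise. Alternatives were RLE factors, DESeq2 1.42.0, no filter, thinning, doublets, 4000 UMIs, no block or sex term, other scores and leave-one-out. Thinned fits took Foxp3 status from the thinned counts, and leave-one-out fits of the genotype label had no term for sex. Leaving out clusters named as other cell types could not be done because none was named so; cells without a T marker UMI were left out instead, a choice made after the data were seen, as were the range of 4000 to 8000 UMIs and the fit on the regulatory T-like cluster alone. Within-class intervals are 2 SE, and counting intervals are exact.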

Additional observations from a re-analysis of the deposited data

Results flagged for a closer look

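In 4 cases the effect of a contrast differed between Foxp3-positive and Foxp3-negative cells by edgeR's test of the difference itself. For the genotype label these were Gpr83 (log2 difference -1.67, called in 5 of 6 alternatives) and Lrrc32 (-1.14, 4 of 6), and for the activation score Gpr83 (-1.06, 2 of 6) and Izumo1r (-1.05, 6 of 6). With every cell thinned to 2000 UMIs the Gpr83 values were -0.63 for the label and -0.47 for the score, neither of them called. Foxp3 status was also taken from the thinned counts there.

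In another 4 cases the genotype-label difference had opposite signs in the female and male library pairs; with 1 library per sex and label this was not tested. In Foxp3-positive cells the female and male log2 values were 0.39 and -0.04 for Hopx, -0.11 and 0.02 for Lrrc32, and -0.84 and 0.74 for Areg. In Foxp3-negative cells those of Areg were -0.01 and 0.57.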

How the results depend on the processing

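The labels give no replicate numbers; numbers assigned here in accession order pair the libraries by sex. The term for sex in the genotype-label fits is therefore also the block for these pairs. Without it, and with all 4 libraries kept, no member was called in any of the 3 cell classes. The genotype-label fits that left out 1 library had no term for sex either, so they changed 2 things at once. In them the label was in part confounded with sex. The fits by Foxp3 status and score kept the library as a block, and without it called 9 members by Foxp3 status and 7 (Lrrc32 lost) and 8 by score in Foxp3-negative and Foxp3-positive cells. Counts of all genes called, and of members called, follow each comparison.
Genotype label, all cells (155 genes, 8 members): DESeq2 gave 47 and 4, no filter 20 and 1, thinning 59 and 4, no sex term 7 and 0, T marker cells only 65 genes, and leaving out 1 library 43 to 117 and 2 to 5. Foxp3-positive cells (37, 0): DESeq2 1, thinning 0 (130 genes at an unadjusted p under 0.05), doublets removed 17, a minimum of 4000 UMIs 22 and 1, no sex term 7, the regulatory T-like cluster only 24, leaving out 1 library 17 to 98 and 0 to 3. Foxp3-negative cells (117, 4): DESeq2 33 and 0, no filter 76 and 1, thinning 50, 4000 UMIs 77 and 1, T marker cells only 26 and 0, no sex term 6 and 0, regulatory T-like cluster left out 52 and 0, leaving out 1 library 12 to 70 and 0 to 3.
Foxp3 status (3702, 9): thinning 2205, cells of 4000 to 8000 UMIs 1527, leaving out 1 library 2475 to 3694; all 9 members stayed called in every alternative run. Score, Foxp3-negative cells: leaving out 1 library gave 8008 to 8670 and 8 members. Score, Foxp3-positive cells (2199, 8): DESeq2 1322, thinning 445 and 3, 4000 to 8000 UMIs 1162, leaving out 1 library 1387 to 2342 and 6 to 8. Difference of the label effect (35, 2): DESeq2 9, thinning 6 and 0, leaving out 1 library 24 to 57 and 1 to 2. Difference of the score effect (363, 2): DESeq2 1 member, thinning 178, leaving out 1 library 173 to 369 and 1 to 3. The Foxp3 share difference was 2.17 percentage points and 1.52 to 2.82 when 1 library was left out.
Directions turned as follows. Label, Foxp3-positive: Areg -0.085 with DESeq2, -0.41 thinned, -0.041 at 4000 UMIs; Itgb8 -0.080 and Izumo1r 0.012 thinned; leaving out 1 library, Hopx -0.195 to 0.49, Lrrc32 -0.20 to 0.018, Areg -0.79 to 0.65. Label, Foxp3-negative: Ikzf4 -0.052 at 4000 UMIs, Izumo1r -0.0065 without the regulatory T-like cluster. Score, Foxp3-negative: Gpr83 0.33 at 4000 UMIs, 0.75 without that cluster and -0.33 to 0.14 leaving out 1 library; with the growth score Lrrc32 -0.40, Areg -0.38, Izumo1r -0.10. Score, Foxp3-positive: Lrrc32 -0.021 at 4000 to 8000 UMIs, -1.12 with the growth score and -0.10 to 0.27 leaving out 1 library, Areg -1.24 with the growth score. Difference of the label effect: Socs2 0.17 thinned; leaving out 1 library, Ikzf2 -0.44 to 0.084, Hopx -0.26 to 0.11, Areg -0.95 to 0.34, Tiam1 -0.49 to 0.0027. Difference of the score effect: Hopx 0.15 with DESeq2 and -0.27 to 0.14 leaving out 1 library. Share of Foxp3-negative cells with a UMI, labelled Irf5-/- minus WT in percentage points: thinned, Ikzf4 0.599, Hopx 0.584, Izumo1r 0.0578; Tiam1 -0.180 without the regulatory T-like cluster and -0.464 to 0.635 leaving out 1 library, Areg -0.170 to 0.0157. The cause was not tested.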
